A study of Mus musculus with 12 samples.

Results

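The genes described here build and serve the secretory route from the endoplasmic reticulum (ER) to the Golgi: chaperones of the ER lumen, the channel through which new proteins enter the ER, the coats of transport vesicles and the receptors that pick cargo. They were chosen by symbol and not by any measured value: every symbol that starts with Sec, Pdia, Tmed, Kdelr, Lman or Ssr followed by a digit, together with the genes of the COPI coat (Copa, Copb1, Copb2, Cope, Copg1, Copg2, Copz1 and Copz2) and the chaperone genes Hspa5, Hsp90b1, Calr, Canx, Serpinh1 and Hyou1. This gave 63 of the 14063 listed symbols. The name of the set does not hold for all of them, because 4 (Sec14l1 to Sec14l4) encode lipid-binding proteins related to yeast Sec14 and not parts of the ER to Golgi route. They stay in the sums, counts and medians, where only Sec14l1 passes the minimum. The data are 12 single cells, cardiac precursor cells (CPs) taken from CD1 strain mouse embryos with no treatment or engineered allele named. The 4 subpopulations of 3 cells each are the Nkx2-5+/Tbx5+ and the Nkx2-5+ CPs of the early head fold (EHF) stage and the Tbx5+ and the Nkx2-5+ CPs of the early allantoic bud (EB) stage, called by PCR for both cardiac transcription factor genes on each cell's amplified cDNA. The study also selected its CPs by PCR as negative for Sox17 and Sox2 and positive for Cfc1, a marker of lateral plate mesoderm. No embryo is named for any cell, so each subpopulation counts as 1 sample without any test, and values are given cell by cell in aligned reads of the gene per 1000000 aligned reads of the cell (RPM) for replicates 1, 2 and 3.

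Proteins that are secreted or sit in membranes enter the ER through the Sec61 channel while they are made. The signal peptidase removes their signal sequence, and chaperones such as BiP (Hspa5), GRP94 (Hsp90b1), calreticulin (Calr) and calnexin (Canx) and disulfide isomerases fold them. Folded cargo leaves in vesicles coated by COPII, and escaped ER proteins return in vesicles coated by COPI, caught by KDEL receptors. When unfolded proteins build up, the unfolded protein response raises many of these genes, in part through the ER stress response element, a CCAAT box and a CCACG box set apart by a fixed spacer, which NF-Y and ATF6 bind. Embryonic mesoderm secretes laminin, fibronectin and collagen, and the collagen chaperone HSP47 (Serpinh1) serves the collagens.

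The element was looked for in the promoters of the members, as the sequence feature they could share that their choice did not use. The letters searched were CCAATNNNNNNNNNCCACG, on both strands, from 250 bases before to 50 bases after each start in the RefSeq promoter table for mm10 (GRCm38.p6). Of 54 members with a window, 5 held the motif (9.26%), against 37 of all 27025 genes with a window (0.137%). These 5 encode ER chaperones or the disulfide isomerase Pdia6. No translocon, signal peptidase, coat, SNARE or cargo receptor gene with a window held it. The element is already described for ER stress genes of this kind, as stated above, so the higher share is no new evidence about the set. The members without a window were Hyou1, Kdelr2, Lman1, Sec11c, Sec14l4, Sec61a1, Ssr2, Tmed2 and Tmed7. The 6 stretches are shown in the direction of the gene because they hold every match among the members; capitals mark the motif, which reads in reverse complement in Calr and in the second Hsp90b1 match.
Calr, chr8:84847055-84847113: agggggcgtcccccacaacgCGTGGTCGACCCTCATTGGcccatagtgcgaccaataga
Canx, chr11:50325780-50325838: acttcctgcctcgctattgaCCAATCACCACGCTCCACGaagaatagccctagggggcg
Hsp90b1, chr10:86705618-86705676: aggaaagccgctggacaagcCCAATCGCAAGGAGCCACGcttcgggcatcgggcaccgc
Hsp90b1, chr10:86705513-86705571: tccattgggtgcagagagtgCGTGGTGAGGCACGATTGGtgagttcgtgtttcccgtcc
Hspa5, chr2:34772005-34772063: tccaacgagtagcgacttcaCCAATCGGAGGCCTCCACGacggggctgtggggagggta
Pdia6, chr12:17266471-17266529: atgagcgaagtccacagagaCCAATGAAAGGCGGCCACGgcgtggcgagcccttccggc
Calr, Canx and Hsp90b1 lie on the minus strand of the chromosome, and Hspa5 and Pdia6 on the plus strand. The motif began 162 bases before the start site in Calr, 145 in Canx, 212 and 107 in Hsp90b1, 65 in Hspa5 and 98 in Pdia6. A match is a description of these letters and not a bound site.

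Aligned reads ranged between 12475588 and 37905007 per cell, so that 1 read was worth 0.0264 to 0.0802 RPM, and 3 reads, which a count of 0 allows, 0.0791 to 0.240 RPM. These limits cover counting error only, since PCR copies of a molecule are not independent. The fewest genes at 1 RPM or more were in EHF Nkx2-5+/Tbx5+ replicate 3 (2682), EHF Nkx2-5+ replicate 2 (3073) and EB Tbx5+ replicate 2 (3249), against 4386 to 5650 in the other 9 cells, and EB Tbx5+ replicate 2 had the fewest genes above 0 (6325). Nkx2-5 was at 262, 65.1 and 12.2 RPM in EHF Nkx2-5+/Tbx5+ CPs, 201, 242 and 34.7 RPM in EHF Nkx2-5+ CPs and 33.6, 41.9 and 1.48 RPM in EB Nkx2-5+ CPs, and it was listed at 0 in EB Tbx5+ CPs. Tbx5 was at 60.3, 3.69 and 8.69 RPM in EHF Nkx2-5+/Tbx5+ CPs and only 0.218, 0.0276 and 0.335 RPM in EB Tbx5+ CPs, so the sequencing showed the gene that names these EB cells at the level of a few reads. The defining endoderm markers Cer1 and Trf were at 0 in all 12 cells, although Krt8, Krt18 and Epcam brought the summed level of the 9 listed endoderm markers to 90.5 to 1272 RPM in EHF Nkx2-5+/Tbx5+ CPs, 146 to 1176 in EHF Nkx2-5+ CPs, 357 to 1147 in EB Tbx5+ CPs and 2.81 to 1689 in EB Nkx2-5+ CPs. Epcam was at 123 RPM in EB Tbx5+ replicate 1 and 164 RPM in EB Nkx2-5+ replicate 2 and under 2 RPM in the others. Sox17 was at 0.0895 RPM in EHF Nkx2-5+ replicate 1 and 0 in the others. Cfc1 was at 94.8, 52.5 and 75.6 RPM in EHF Nkx2-5+/Tbx5+ CPs and 189, 5.13 and 22.8 RPM in EHF Nkx2-5+ CPs. It was at 0.0272, 60.5 and 108 RPM in EB Tbx5+ CPs and 0.0720, 0.0882 and 45.3 RPM in EB Nkx2-5+ CPs. The 7 listed markers of neural or surface ectoderm summed to at most 11.2 RPM in any cell. The 6 of endothelium or blood, mainly Kdr and Etv2, summed to 0.0574 to 41.8 RPM in EHF Nkx2-5+/Tbx5+, 0.423 to 498 in EHF Nkx2-5+, 0.138 to 349 in EB Tbx5+ and 59.1 to 671 in EB Nkx2-5+ CPs. The 6 of extraembryonic mesoderm or allantois, mainly Hand1, which cardiac cells also express, summed to 6.70 to 129 RPM in EHF Nkx2-5+/Tbx5+, 2.57 to 139.5 in EHF Nkx2-5+, 1102 to 1735 in EB Tbx5+ and 29.7 to 1158 in EB Nkx2-5+ CPs. The part of these cell types in the results was not tested.

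Of the 63 members, 31 averaged 10 RPM or more over the 12 cells, the level from which genes were compared, and 32 did not. Only these 31 enter counts and medians, and 5031 genes of the whole list pass the same minimum. A cell showed 22 to 43 of the 63 members at 1 RPM or more: 41, 43 and 22 in EHF Nkx2-5+/Tbx5+ CPs, 33, 22 and 33 in EHF Nkx2-5+ CPs, 40, 26 and 36 in EB Tbx5+ CPs and 36, 40 and 33 in EB Nkx2-5+ CPs. The low counts of 22 belonged to the pair of EHF cells that showed the fewest genes at this level, replicate 3 of the Nkx2-5+/Tbx5+ and replicate 2 of the Nkx2-5+ CPs. All 31 compared members were at 1 RPM or more in EHF Nkx2-5+/Tbx5+ replicates 1 and 2, where 72.2% and 79.2% of all 5031 compared genes were, and 18 of 31 (58.1%) in replicate 3, against 37.4% of all compared genes in that cell. The members at 1 RPM or more in all 12 cells numbered 8, and 8 others reached 1 RPM in no cell, among them Kdelr3 and Sec14l3, listed at 0 throughout.

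The 63 members together took a larger part of the transcriptome in EHF Nkx2-5+/Tbx5+ CPs than in any other cell. Their summed level was 5951, 6216 and 9922 RPM in EHF Nkx2-5+/Tbx5+ CPs, 3755, 3541 and 2657 RPM in EHF Nkx2-5+ CPs, 3697, 3553 and 3496 RPM in EB Tbx5+ CPs and 4285, 4789 and 2952 RPM in EB Nkx2-5+ CPs. The 3 EHF Nkx2-5+/Tbx5+ CPs lay above the other 9 cells, and so they did for the share of all listed RPM, 1.11, 1.08 and 2.32% against 0.591% to 0.896%. In replicate 3 a single gene, Pdia6, gave 58.1% of the sum. Without Pdia6 the sum was 5003, 5418 and 4159 RPM in EHF Nkx2-5+/Tbx5+ CPs, against 2292 to 4177 RPM over the remaining 9 cells, so that replicate 3 then lay just below EB Nkx2-5+ replicate 1. The sums compare cells and not genes, because RPM is not corrected for gene length. Single members varied more than the sum: over the 12 cells the coefficient of variation of the 31 compared members ran between 0.62 for Sec61b, a subunit of the channel, and 2.85 for Tmed4, which was above 1 RPM in only 3 cells. The most even after Sec61b were Sec13 (0.76), Sec61a1 (0.78), Canx (0.81) and Lman2 (0.83).

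**Figure D1:**
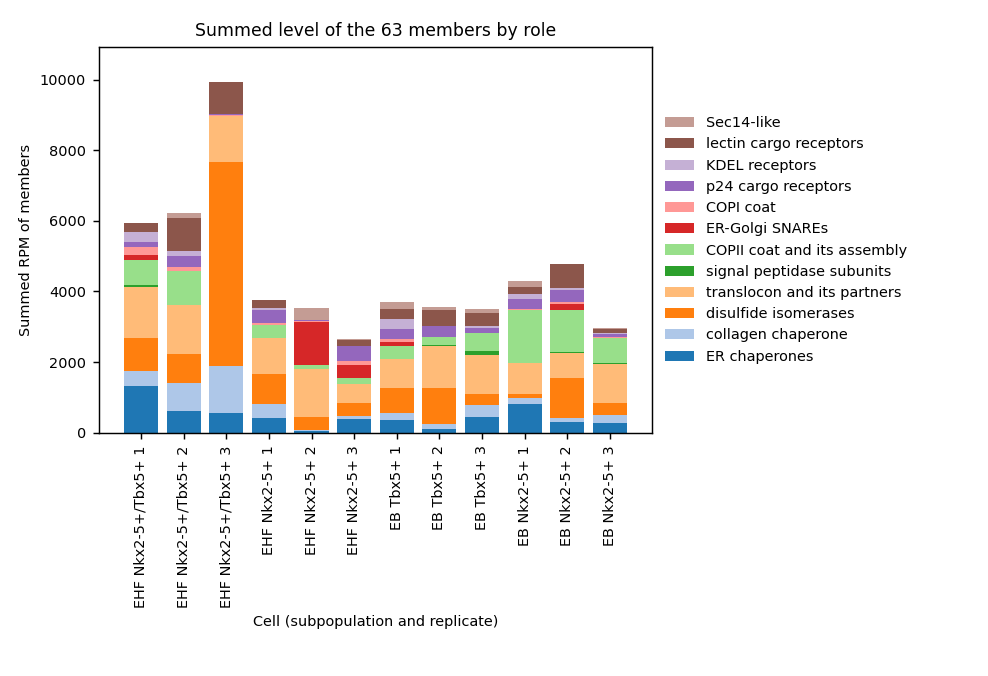
Bars give the summed RPM of the 63 members in each of the 12 cells, stacked by role. The 3 EHF Nkx2-5+/Tbx5+ CPs reach 5951 to 9922 RPM, above the 2657 to 4789 RPM of the other 9 cells, and Pdia6, a disulfide isomerase, fills most of replicate 3.

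The EHF Nkx2-5+/Tbx5+ CPs, the double-positive cells of the later stage, had higher means for 19 of the 31 compared members than the other 9 cells. On the log2 scale with 10 RPM added to each mean, which understates the difference of low genes, the members had a median of 0.41 and all 5031 genes a median of -0.27. A mean at least 2-fold higher was found for 12 members (38.7%, against 19.7% of all genes): Lman1, Serpinh1, Pdia6, Calr, Copg1, Ssr1, Kdelr1, Sec23b, Ssr2, Sec61a1, Sec24c and Cope. The minimum is a mean over all 12 cells, so any of the 5031 genes can pass it through the group where it is high. Sec23b passed in this way, at 3.40, 110 and 2.38 RPM in these 3 cells and a mean of 8.72 RPM in the other 9. A mean at least 2-fold lower was found for 4 (12.9%, against 31.5% of all genes): Sec22b, Tmed10, Sec14l1 and Hsp90b1. Serpinh1 was the only member with all 3 cells above the other 9, a pattern of 0.994% of all genes, and 0 members had all 3 below (0.239%). The lead was uneven between cells: without replicate 2 the median of the members was -0.33, and with a minimum of 50 RPM it was -0.0046. These are medians of the members alone, without that of all genes under the same setting. The 12 listed cardiac markers summed to 1366 to 9495 RPM in these 3 cells and 129 to 1458 RPM in the other 9. The median member log2 difference from the other groups was 0.36, 0.67 and -1.35 in replicates 1, 2 and 3. That of all genes was -0.61, -0.26 and -1.76. Of these cells, replicate 3 had the highest cardiac sum and the highest summed level of members, and replicate 2 the lowest cardiac sum. The part of the cardiac markers in the result was not tested.

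The EHF Nkx2-5+ CPs, the single-positive cells of the same stage, had lower means for 24 of the 31 members. The median log2 difference was -1.16, while that of all genes was -0.80. At least 2-fold lower were 17 members (54.8%, against 44.9% of all genes) and at least 2-fold higher 2, Sec22b and Tmed1 (6.45%, against 13.1%). No member had its 3 cells all above or all below the other 9, a pattern shown by 0.378% and 0.457% of all genes. These cells include replicate 2, 1 of the cells with the fewest genes, and most genes of any kind had lower means here.

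The EB Tbx5+ and the EB Nkx2-5+ CPs were nearer to all genes. In EB Tbx5+ CPs 12 members had higher means, the median was -0.43 (all genes -0.28), 2 were at least 2-fold higher, Hsp90b1 and Tmed10 (6.45%, against 16.2% of all genes), and 9 at least 2-fold lower (29.0%, against 33.0%). In EB Nkx2-5+ CPs 12 members had higher means as well, the median was -0.35 (all genes -0.074), 5 were at least 2-fold higher (16.1%, against 20.5%), and 9 at least 2-fold lower (29.0%, against 27.4%). The 5 were Sec31a, Tmed4, Sec24b, Sec13 and Tmed2. Tmed4 passed the minimum only through these cells, with a mean of 2.30 RPM in the other 9. No member had its 3 cells all above or all below the rest in either subpopulation, a pattern shown by 0.477% and 0.179% of all genes in EB Tbx5+ CPs and by 0.537% and 0.0994% in EB Nkx2-5+ CPs. Each of these comparisons shares cells with the others, so they are not separate evidence.

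Between the stages, 18 members had higher means in the 6 EHF CPs than in the 6 EB CPs, with a median of 0.25 (all genes -0.19). The 6 at least 2-fold higher were Sec22b, Cope, Serpinh1, Lman1, Pdia6 and Tmed1 (19.4%, against 20.0% of all genes), a share near that of all genes. The 4 at least 2-fold lower were Tmed10, Sec24b, Sec13 and Tmed4 (12.9%, against 26.7%). The 6 EHF cells join the subpopulation with the highest and the one with the lowest member median, and the median was -0.28 without EHF Nkx2-5+/Tbx5+ replicate 2 and -0.01 with means of log2 values.

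**Figure D2:**
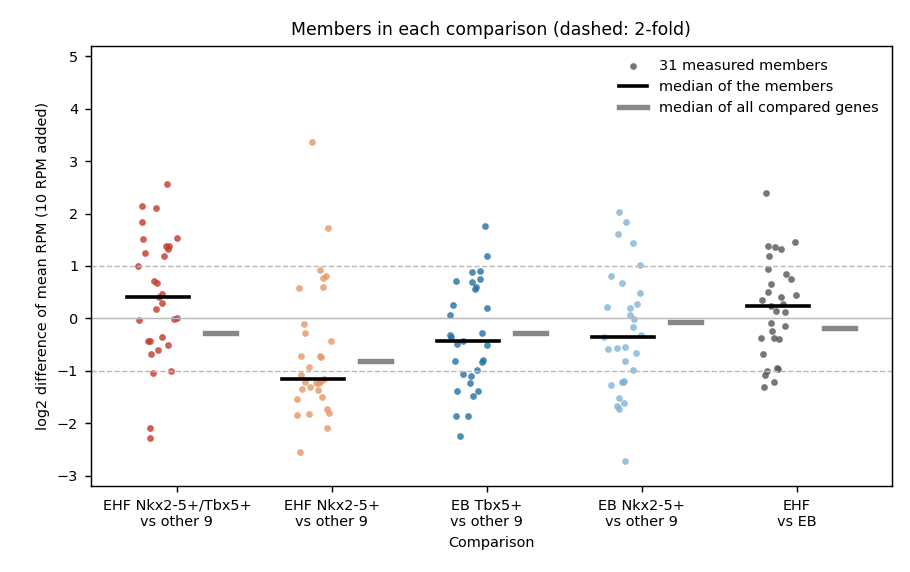
Points are the log2 differences of mean RPM (10 RPM added) of the 31 compared members, for each subpopulation against the other 9 cells and for EHF against EB; black lines are the medians of the members and grey lines those of all 5031 genes, and dashed lines mark 2-fold. The members' median lies above that of all genes for the EHF Nkx2-5+/Tbx5+ CPs (0.41 and -0.27) and below it for the EHF Nkx2-5+ CPs (-1.16 and -0.80).

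Serpinh1 (chromosome 7 from 99345375 to 99353239 in mm10) encodes HSP47, which binds procollagen in the ER and helps its triple helix to form. It was at 406, 796 and 1348 RPM in EHF Nkx2-5+/Tbx5+ CPs, 379.9, 38.9 and 89.7 RPM in EHF Nkx2-5+ CPs, 195, 121 and 335 RPM in EB Tbx5+ CPs and 163, 106 and 223 RPM in EB Nkx2-5+ CPs. The lowest EHF Nkx2-5+/Tbx5+ CP lay just above the highest of the others, EHF Nkx2-5+ replicate 1. The log2 difference of the EHF Nkx2-5+/Tbx5+ CPs from the other 9 was 2.15, and 2.48, 2.20 and 1.66 without replicate 1, 2 and 3. The study lists Serpinh1, Calr, Lman1 and Sec61a1 as enriched in EHF Nkx2-5+/Tbx5+ CPs on these same cells, so these values give no independent evidence of direction.

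Among the ER chaperones, calreticulin followed the double-positive cells, while BiP, GRP94 and calnexin did not. Calr (chromosome 8 from 84842088 to 84846931), a calcium-binding lectin chaperone needed for heart development in the mouse, was at 1157, 536 and 502 RPM in EHF Nkx2-5+/Tbx5+ CPs, 298, 10.7 and 9.86 RPM in EHF Nkx2-5+ CPs, 45.1, 49 and 338 RPM in EB Tbx5+ CPs and 596, 205 and 232 RPM in EB Nkx2-5+ CPs. The groups overlapped, since EB Nkx2-5+ replicate 1 reached 596 RPM, and the log2 difference of the EHF Nkx2-5+/Tbx5+ CPs was 1.83, or 1.35 without replicate 1. In EHF Nkx2-5+ CPs it was -1.84, with replicates 2 and 3 near 10 RPM, and in EB Tbx5+ CPs -1.39. Canx, the membrane-bound partner of calreticulin in glycoprotein folding, was at 28.8, 22 and 12.8 RPM in EB Tbx5+ CPs, where the study lists it as enriched on these cells, against 0.875 to 26.2 RPM in the other 9. This was a log2 difference of 0.72, under 2-fold, and EHF Nkx2-5+/Tbx5+ replicates 2 and 3 stood between the EB Tbx5+ cells.

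Hspa5, the master chaperone of the ER and sensor partner of the unfolded protein response, was at 141, 47.7 and 21.6 RPM in EHF Nkx2-5+/Tbx5+ CPs, 66, 13.4 and 359 RPM in EHF Nkx2-5+ CPs, 81.6, 19.7 and 30.9 RPM in EB Tbx5+ CPs and 209, 69.4 and 26 RPM in EB Nkx2-5+ CPs. The EB Tbx5+ CPs were past 2-fold lower (-1.10), inside the range of the other cells, and no other subpopulation was past 2-fold. The log2 difference of the EHF Nkx2-5+ CPs, 0.93, came from replicate 3 and was -0.72 without it. Hsp90b1, which folds integrins and other clients, was at 213, 22.3 and 20.1 RPM in EB Tbx5+ CPs, against 0.115 to 51.4 RPM over the remaining 9 cells. Replicate 1 alone stood out, and the log2 difference of 1.77 was 0.16 without it. In EHF Nkx2-5+/Tbx5+ CPs Hsp90b1 was at 34, 12.5 and 0.115 RPM, just past 2-fold lower. Hyou1, a co-chaperone of BiP, was under the minimum, with a highest value of 42.8 RPM in EB Tbx5+ replicate 3.

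Of the disulfide isomerases only Pdia6 passed the minimum. Pdia6 (chromosome 12 from 17266589 to 17284785), which also acts on the stress sensor IRE1, was at 948, 798 and 5763 RPM in EHF Nkx2-5+/Tbx5+ CPs, 846, 359 and 365 RPM in EHF Nkx2-5+ CPs, 674, 1030.2 and 307 RPM in EB Tbx5+ CPs and 109, 1139 and 327 RPM in EB Nkx2-5+ CPs. EHF Nkx2-5+/Tbx5+ replicate 3 alone stood far above the rest, and replicates 1 and 2 lay below EB Nkx2-5+ replicate 2. The log2 difference of 2.11 was 0.60 without replicate 3. Pdia3, Pdia4 and Pdia5 had highest values of 14.4, 4.75 and 22 RPM in any cell. P4hb, the classic protein disulfide isomerase, is outside the symbols chosen; it was at 3789, 1027 and 455 RPM in EHF Nkx2-5+/Tbx5+ CPs (0.50).

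**Figure D3:**
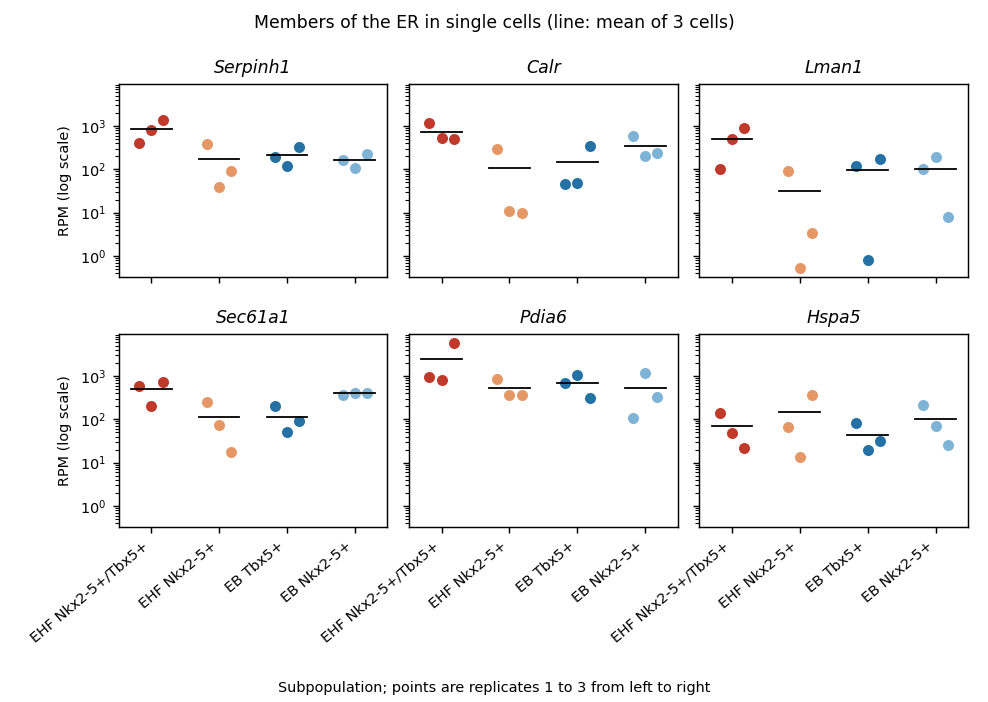
Each point is the RPM of 1 cell on a log axis, for 6 members in the 4 subpopulations; lines are means of 3 cells. Serpinh1 is the only one of the 6 whose EHF Nkx2-5+/Tbx5+ CPs (406 to 1348 RPM) all lie above the other 9 cells (38.9 to 380 RPM), and Pdia6 reaches 5763 RPM in replicate 3.

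The Sec61 channel and its partners did not move as 1 unit. Sec61a1 (chromosome 6 from 88503607 to 88518800), the pore-forming subunit, was at 593, 207 and 713 RPM in EHF Nkx2-5+/Tbx5+ CPs, 248, 75.8 and 18 RPM in EHF Nkx2-5+ CPs, 203, 51.6 and 91.4 RPM in EB Tbx5+ CPs and 367, 414 and 401 RPM in EB Nkx2-5+ CPs. The EHF Nkx2-5+/Tbx5+ CPs had a log2 difference of 1.24, and their replicate 2 lay below all EB Nkx2-5+ CPs, which were close to each other. The EHF Nkx2-5+ and EB Tbx5+ CPs were lower, at -1.49 and -1.47. Sec61b, the small tail-anchored subunit of the same channel, had its highest value in EHF Nkx2-5+ replicate 2, 1263 RPM, and was at 368, 343 and 348 RPM in EHF Nkx2-5+/Tbx5+ CPs (-0.61). No cell had less than 158 RPM of Sec61b. The third subunit, Sec61g, was under the minimum (highest 5.60 RPM).

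The subunits of the translocon-associated protein complex, which binds beside the channel and helps some signal sequences to enter, also differed from each other. Ssr1 was at 241, 239.5 and 1.26 RPM in EHF Nkx2-5+/Tbx5+ CPs (1.52), against 1.04 to 137 RPM over the remaining 9 cells, so replicates 1 and 2 were the highest of all and replicate 3 almost the lowest. Ssr2 was at 161, 226 and 217 RPM in EHF Nkx2-5+/Tbx5+ CPs (1.32), above 8 of the other 9 cells and below EB Tbx5+ replicate 2 (436 RPM). In EB Nkx2-5+ CPs Ssr2 was at 3.96, 0.441 and 33.3 RPM (-2.71), the largest negative difference of any member in that subpopulation. Ssr4 was at 1.22, 1.01 and 2.03 RPM in EB Nkx2-5+ CPs (-1.61), inside the range of the other 9 cells (0 to 98.6 RPM). It was at 98.6, 0.0564 and 0 RPM in EHF Nkx2-5+ CPs (0.81, or -1.29 without replicate 1). Ssr3 stayed under 2-fold in 4 of the 5 comparisons and was at -1.19 in EHF Nkx2-5+ CPs. Sec62, which serves proteins that enter after synthesis, was highest in single cells, 202 RPM in EHF Nkx2-5+/Tbx5+ replicate 2 and 221 RPM in EB Tbx5+ replicate 1, and was at 19.1, 10.4 and 0.780 RPM in EB Nkx2-5+ CPs (-1.73). Its partner Sec63 was under the minimum. Of the signal peptidase subunits, Sec11a was at 48.4, 3.80 and 8.55 RPM in EHF Nkx2-5+/Tbx5+ CPs and 0.0720, 44.4 and 31.3 RPM in EB Nkx2-5+ CPs, under 2-fold in both, and Sec11c was above 10 RPM on average in no group but the EB Tbx5+ CPs, through 106 RPM in replicate 3.

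Of the 5 compared genes of the COPII coat, 3 had means at least 2-fold higher in EB Nkx2-5+ CPs and 1 at least 2-fold lower. Of all genes 20.5% were higher and 27.4% lower, and with 5 genes the counts are descriptions only. Sec13 (chromosome 6 from 113728052 to 113740681), a subunit of the outer coat and of the nuclear pore, was at 573, 565 and 237 RPM in EB Nkx2-5+ CPs, against 0.0860 to 283 RPM over the remaining 9 cells. Replicates 1 and 2 were the highest of all cells, replicate 3 lay among the others, and the log2 difference was 1.43 (1.24 to 1.74 without 1 of these cells). Sec31a (chromosome 5 from 100361649 to 100416273), the other outer coat subunit, was at 601, 135 and 430.0 RPM in EB Nkx2-5+ CPs, against 0.201 to 269.8 RPM in the rest. Here replicates 1 and 3 were highest, with a log2 difference of 2.03 (1.58 to 2.43 without 1 of these cells). The study lists Sec13 and Sec31a as enriched in EB Nkx2-5+ CPs on these cells, so this is not independent evidence.

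Sec24b, an inner coat subunit that binds cargo and that the study does not list, was at 235, 352 and 39.9 RPM in EB Nkx2-5+ CPs, against 0.0829 to 168 RPM in the rest, a log2 difference of 1.62 (1.05 without replicate 2). Sec24c, its paralog, was at 90.7, 87.9 and 2.90 RPM in EB Nkx2-5+ CPs (0.48) and reached its highest value, 237 RPM, in EHF Nkx2-5+/Tbx5+ replicate 2. Sec23b, the inner coat subunit that activates the GTPase Sar1, had a lower mean, at 2.41, 0.309 and 0.0557 RPM in EB Nkx2-5+ CPs (-1.52). These values lay inside the range of the other 9 cells (0 to 110 RPM). The difference was -0.89 without EHF Nkx2-5+/Tbx5+ replicate 2, the highest cell. The summed level of the 11 COPII members was 1503, 1170.1 and 710.0 RPM in EB Nkx2-5+ CPs, against 706, 949 and 3.27 RPM in EHF Nkx2-5+/Tbx5+ CPs, 369, 102 and 193 RPM in EHF Nkx2-5+ CPs and 382, 219 and 495 RPM in EB Tbx5+ CPs. EHF Nkx2-5+/Tbx5+ replicate 3 had almost no COPII transcript, although its members summed to the highest level of all cells. The other 6 genes of the coat and its assembly, Sec23a, Sec24a, Sec24d, Sec16a, Sec16b and Sec23ip, were under the minimum.

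The 5 compared COPII genes, Sec13, Sec23b, Sec24b, Sec24c and Sec31a, tended to vary together from cell to cell, and the weakest pairs held Sec23b. Over the 12 cells the Spearman correlation was positive for all 10 pairs, with a median of 0.63, against 0.17 over the 465 pairs of members and 0.12 over all pairs of the 5031 genes. The closest pair was Sec24b and Sec24c (0.80). Sec23b had 0.21 with Sec31a, 0.29 with Sec24b, 0.49 with Sec13 and 0.58 with Sec24c, the last above Sec24b with Sec31a (0.55). Cells with few genes share low values of many genes: the median correlation of a gene with the number of genes at 1 RPM or more in the cell was 0.33 over all genes and 0.43 over the members. Without the 2 cells with the fewest genes the median of the COPII pairs was 0.55 and that of all pairs 0.055. Sec23b then had 0.10 with Sec24b and 0.61 with Sec24c, and Sec24b had 0.43 with Sec31a. Pairs within the translocon group had a median of 0.025 and pairs of the ER chaperones -0.017. The 5 members with the ER stress response element shown above had a median of 0.070 over their 10 pairs, below that of all member pairs. The highest of all member pairs was Calr with Tmed4 (0.87), although Tmed4 was above 1 RPM in only 3 cells, and the lowest was Lman1 with Sec61b (-0.69). Among other pairs, Copg1 with Kdelr1 had 0.83, Lman2 with Tmed10 0.81, and Calr with Serpinh1 0.76. Points of a correlation share their libraries, and these values are descriptions.

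**Figure D4:**
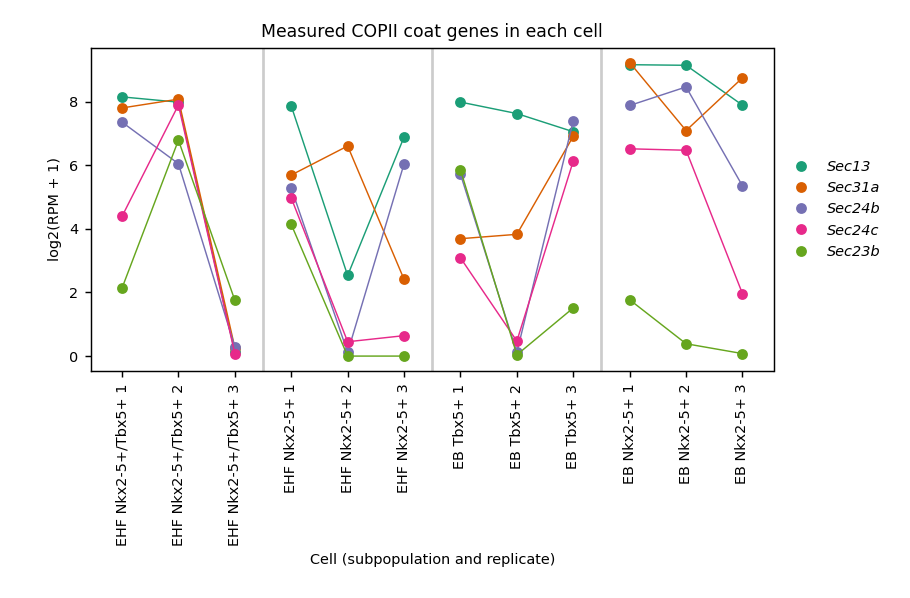
Points are log2(RPM + 1) of the 5 compared COPII genes in each of the 12 cells; thin lines join the cells of a subpopulation for reading only, since replicates have no order. Sec13, Sec24b, Sec24c and Sec31a are near 0 in EHF Nkx2-5+/Tbx5+ replicate 3, where Sec23b is at 2.38 RPM (median of the 12 cells 2.12). All but Sec31a are low in EHF Nkx2-5+ replicate 2. Sec13 and Sec24b are highest in EB Nkx2-5+ replicates 1 and 2 and Sec31a in replicates 1 and 3.

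Sec22b, a SNARE of vesicles between ER and Golgi, was all or none. It was at 0.627, 1227 and 359 RPM in EHF Nkx2-5+ CPs, against 102, 1.42 and 0.0574 RPM in EHF Nkx2-5+/Tbx5+ CPs, 107, 0.0829 and 0.213 RPM in EB Tbx5+ CPs and 0, 167 and 0 RPM in EB Nkx2-5+ CPs. In each subpopulation it was above 100 RPM in 1 or 2 cells and under 2 RPM in the others. The log2 difference of the EHF Nkx2-5+ CPs was the largest of any member, 3.37, and 1.87 without replicate 2. Sec22c was above 10 RPM in a single cell (41.2 RPM in EHF Nkx2-5+/Tbx5+ replicate 1), and Sec22a was near 0.

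The COPI coat, which returns vesicles to the ER, was measured mainly through Copg1 and Cope. Copg1 was at 89, 56 and 1.00 RPM in EHF Nkx2-5+/Tbx5+ CPs, against 0.0276 to 46.3 RPM over the remaining 9 cells (1.53), with replicates 1 and 2 the highest of all cells. Without replicate 1 its log2 difference was 0.93. Cope was at 106, 45 and 28 RPM in EHF Nkx2-5+/Tbx5+ CPs (1.00) and at 46.6, 1.30 and 94.7 RPM in EHF Nkx2-5+ CPs, against 0, 10.3 and 3.29 RPM in EB Tbx5+ CPs and 14.9, 33.6 and 17.6 RPM in EB Nkx2-5+ CPs. The EHF minus EB log2 difference of Cope was 1.45, and the EB Tbx5+ CPs were 3 of the 4 lowest cells, at -1.87 against the other 9. Copa, Copb1, Copb2, Copz1, Copz2 and Copg2 were under the minimum, with a highest value of 34.8 RPM for Copb1 in EB Tbx5+ replicate 1.

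The p24 proteins (Tmed), which load cargo such as GPI-anchored and WNT proteins into vesicles, differed in direction. Tmed10 was at 5.49, 60.1 and 0 RPM in EHF Nkx2-5+/Tbx5+ CPs, against 0.254 to 289 RPM over the remaining 9 cells (-2.10), and at 198, 289 and 55.3 RPM in EB Tbx5+ CPs (1.19, or 0.71 without replicate 2). Tmed1 was at 151, 0.141 and 265 RPM in EHF Nkx2-5+ CPs, against 0 to 112 RPM in the rest (1.73), high in replicates 1 and 3 and near 0 in replicate 2. Tmed2 and Tmed4 were past 2-fold in EB Nkx2-5+ CPs (1.01 and 1.84) through replicate 1 alone, with 126 and 102 RPM, and without that cell both were below the other 9 (-0.81 and -0.27). Tmed3, Tmed5, Tmed7, Tmed8 and Tmed9 were under the minimum, Tmed9 with 109 RPM in a single cell, EHF Nkx2-5+/Tbx5+ replicate 1.

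The KDEL receptors, which fetch escaped chaperones back, were detected in EHF Nkx2-5+/Tbx5+ replicates 1 and 2 and absent or nearly so in replicate 3. Kdelr1 was at 113, 25.8 and 0 RPM in EHF Nkx2-5+/Tbx5+ CPs, against 0 to 46.6 RPM over the remaining 9 cells (1.37). Kdelr2 was at 175, 133 and 0.0574 RPM in EHF Nkx2-5+/Tbx5+ CPs (0.67) and at 53.7, 0.0564 and 0.561 RPM in EHF Nkx2-5+ CPs (-1.82). The highest Kdelr2 of all cells was in EB Tbx5+ replicate 1 (218 RPM), and EB Nkx2-5+ replicate 1 had 160 RPM. For both receptors EHF Nkx2-5+/Tbx5+ replicate 2 thus lay below some EB cells. A count of 0 for Kdelr1 in EHF Nkx2-5+/Tbx5+ replicate 3 allows up to 0.0860 RPM at its depth.

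Of the lectin receptors that carry glycoproteins out of the ER, Lman1 followed the double-positive cells and Lman2 did not. Lman1 encodes ERGIC-53, which carries clotting factors in humans. It was at 100.2, 506 and 897 RPM in EHF Nkx2-5+/Tbx5+ CPs, 91.3, 0.536 and 3.37 RPM in EHF Nkx2-5+ CPs, 118, 0.802 and 169 RPM in EB Tbx5+ CPs and 99.7, 193 and 7.88 RPM in EB Nkx2-5+ CPs. EHF Nkx2-5+/Tbx5+ replicates 2 and 3 were the highest of all cells, while replicate 1 lay below several EB cells. Its log2 difference there was the largest of the set, 2.57, and 1.86 to 3.05 when 1 of these cells was left out. In EHF Nkx2-5+ CPs it was -2.54. Lman2, for VIP36, was at 158, 423 and 1.63 RPM in EHF Nkx2-5+/Tbx5+ CPs, against 0.310 to 480.0 RPM over the remaining 9 cells (-0.02). Lman2l was under the minimum. The lipid-binding Sec14l1, outside the route, was at 12.7, 128 and 0.0287 RPM in EHF Nkx2-5+/Tbx5+ CPs (-1.04, or -0.54 without replicate 3), and Sec14l2 to Sec14l4 were near or at 0.

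**Figure D5:**
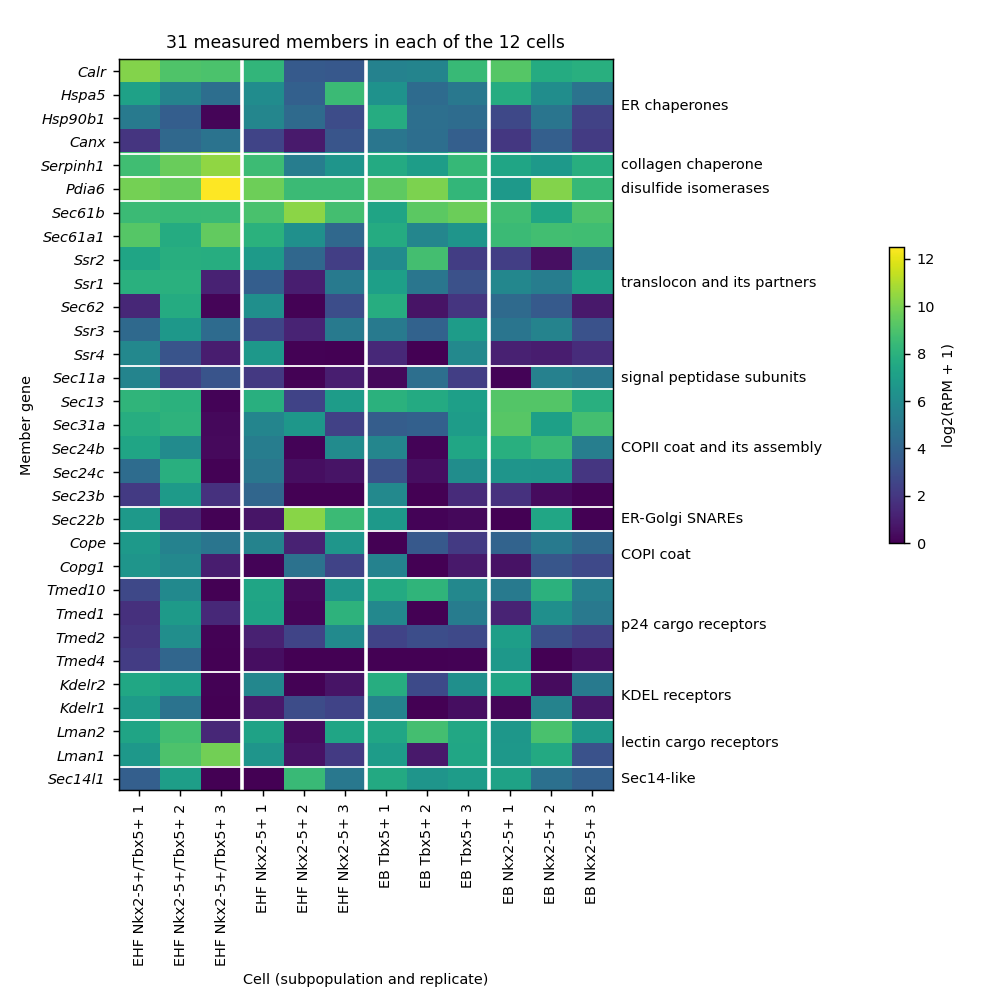
Colours give log2(RPM + 1) of the 31 compared members (rows, grouped by role) in the 12 cells (columns, grouped by subpopulation). Few rows are even within a subpopulation: EHF Nkx2-5+/Tbx5+ replicates 1 and 2 show all 31 at 1 RPM or more and replicate 3 shows 18, with Pdia6, Serpinh1, Lman1 and Sec61a1 high and the COPII genes near 0.

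Other genes of the pathway, taken from lists and not from the symbols above, were looked at for the same cells. The study lists Creld2, Ppib and Ykt6, named below, as enriched in EHF Nkx2-5+/Tbx5+ CPs on these same cells. Their values therefore give no independent evidence of direction. In EHF Nkx2-5+/Tbx5+ CPs, 16 genes of the unfolded protein response passed the minimum, of which 7 had means at least 2-fold higher (19.7% of all genes were) and 3 at least 2-fold lower (31.5%), with a median of 0.51 (all genes -0.27). Creld2, an ER stress target, was at 67.1, 67.6 and 68.5 RPM there, above all other cells, of which EB Nkx2-5+ replicate 2 reached 64.4 RPM and most were near 0. Derl1 (2.40) and Sel1l (1.94), both of ER-associated degradation, were higher and Derl2 (-1.88) lower. The same list had a median of -1.32 in EB Tbx5+ CPs (all genes -0.28), with 1 gene at least 2-fold higher (16.2% of all genes) and 9 lower (33.0%), including Edem1 (-3.41).

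Among 24 other folding factors compared, 4 had means at least 2-fold higher and 7 at least 2-fold lower in EHF Nkx2-5+/Tbx5+ CPs, near the shares of all genes (19.7% and 31.5%). Ppib, cyclophilin B of the collagen-modifying complex, was at 841, 376 and 1044 RPM there, against 322 RPM in the next highest cell, EHF Nkx2-5+ replicate 1, and it was the only gene of that list with all 3 cells above the other 9. Uggt1, which sends misfolded glycoproteins back to calreticulin (3.21), and Erp29 (2.93) were higher, led by replicate 3 with 861 and 1871 RPM. Ppic, another cyclophilin (-3.24), and the collagen prolyl hydroxylase gene Lepre1 (-2.50) were lower. Lepre1 was at 202, 2811 and 0 RPM in EHF Nkx2-5+ CPs (4.69).

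The lists that follow are read against all genes, of which 19.7% were at least 2-fold higher and 31.5% lower in EHF Nkx2-5+/Tbx5+, 13.1% and 44.9% in EHF Nkx2-5+, 16.2% and 33.0% in EB Tbx5+ and 20.5% and 27.4% in EB Nkx2-5+ CPs, and with so few genes in each list their counts are descriptions only. The GTPases and regulators of the coats had 4 of 12 genes at least 2-fold higher and 2 lower in EHF Nkx2-5+/Tbx5+ CPs, with Gbf1, an activator of Arf1 (2.52), and Tfg (2.02) above and Arf3 (-2.17) below. In EHF Nkx2-5+ CPs 0 of 12 were at least 2-fold higher and 8 lower (median -1.54, all genes -0.80). In EB Nkx2-5+ CPs Sar1a, the GTPase that starts the COPII coat, was at 195, 35 and 98.7 RPM (1.56), and 3 of 12 were at least 2-fold higher and 2 lower. Tethers, SNAREs and Rabs of the route had 6 of 24 higher and 8 lower in EHF Nkx2-5+/Tbx5+ CPs, near the shares of all genes, with Ykt6 (2.93) and Gosr2 (2.57) above. In EB Tbx5+ CPs 3 of 24 were higher and 12 lower, with Ykt6 at -2.75. Of 8 oligosaccharyltransferase genes, which attach the sugar that calreticulin and calnexin read, 0 were at least 2-fold higher and 1 lower in EHF Nkx2-5+/Tbx5+ CPs (Tusc3, -2.23). Of 9 genes of the signal recognition particle and its receptor, 2 were higher and 4 lower there, among these 4 Srp54a, Srp54b and Srp54c, near-identical copies whose reads may be divided between them. Of 2 other signal peptidase subunits compared, Spcs1 and Spcs2, neither was past 2-fold.

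Cargo of the route was looked at between the stages. Of 9 genes for collagens and basement membrane proteins compared, 5 had means at least 2-fold higher (20.0% of all genes were) and 2 at least 2-fold lower (26.7%) in the EHF than in the EB CPs, with a median of 1.13 (all genes -0.19). Lama1, the laminin alpha chain of the early embryo, was at 238, 134 and 553 RPM in EHF Nkx2-5+/Tbx5+ CPs and 78.7, 2232 and 183 RPM in EHF Nkx2-5+ CPs, against 0, 0 and 53.3 RPM in EB Tbx5+ CPs and 0, 0.0882 and 48 RPM in EB Nkx2-5+ CPs. All 6 EHF cells lay above all 6 EB cells, with a log2 difference of 4.43. Lama1 was the only 1 of the 9 genes with this pattern, and the share of all genes with it was not computed. The highest Lama1 cell, EHF Nkx2-5+ replicate 2, also held 1075 RPM of Lamb1, 4929.6 RPM of Fn1 (fibronectin) and 2811 RPM of Lepre1, while its Serpinh1 was the lowest of all cells (38.9 RPM) and its ER chaperones summed to 44.2 RPM, also the lowest. In EHF Nkx2-5+/Tbx5+ CPs, where Serpinh1 was highest, 2 of the 9 cargo genes were at least 2-fold higher, Col5a1 (2.58) and Col4a2 (1.32), and 1 lower, Lamb1 (-3.08). Of all genes 19.7% were higher and 31.5% lower there, so the higher count was near the share of all genes.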

How the data were processed

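The authors amplified each cell's oligo-dT primed cDNA by PCR, made Nextera libraries, sequenced them on an Illumina GA IIx and normalised aligned reads to RPM with Partek Genomic Suite on mm10. For CASAVA 1.7.0 no step is stated. The aligner, the strand setting and the treatment of reads with several matches are not given in the sources used here. As deposited, the signal is RPM over the aligned reads of the cell, without length correction. Of values worth 0.5 to 20 reads, 96.3% were whole reads within 0.02. The sheet holds 64 copies of the gene list, and the first was used. Of 14085 names 22 had become dates and were left out.

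Means of 3 cells were set against the other 9, and 6 EHF against 6 EB cells, as log2 differences with 10 RPM added, for genes averaging 10 RPM or more. Members, lists and alternatives were chosen with earlier results of these data known. By rule, the text names members that the study lists as enriched, members whose cells stand apart, the 5 largest differences each way per comparison and the 3 highest members per role, and up to 4 genes per other list. Members named beyond these to complete a role, and P4hb, Fn1, Sar1a, Krt8, Krt18, Epcam, Kdr, Etv2, Hand1 and the correlated pairs, were chosen after their values were seen. Promoter windows and positions are from RefSeq tables for mm10. The computation of differences was checked on simulated data. Alternatives were 1 or 30 RPM added, no minimum or 50 RPM, means of log2 values, a sum without the 100 most abundant genes, and leaving out cells. Values were computed in Python 3.11.15 with pandas 2.3.3, numpy 2.4.6 and scipy 1.17.1, and plots were drawn with matplotlib 3.10.9.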

Additional observations from a re-analysis of the deposited data

How the results depend on the processing

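No test and no paired analysis was made, because no embryo is named for any cell. Counts of members past 2-fold moved by over 1.5 times under several settings. In the EHF Nkx2-5+/Tbx5+ CPs the 12 higher became 7 with 30 RPM added and 7 with a minimum of 50 RPM, and the 4 lower became 2 with 30 RPM and 1 without the 2 cells with the fewest genes or without these and EB Tbx5+ replicate 2, an alternative added after the data were seen. In the EHF Nkx2-5+ CPs the 2 higher became 4 with 1 RPM added and 5 without the 2 cells and 4 without the 3. In the EB Tbx5+ CPs the 2 higher became 4 with 1 RPM, with no minimum or with means of log2 values and 1 with a minimum of 50 RPM, and the 9 lower became 5 with 30 RPM or means of log2 values. In the EB Nkx2-5+ CPs the 5 higher became 3 with 30 RPM or a minimum of 50 RPM, and the 9 lower became 5, 4 and 2 with 30 RPM, a minimum of 50 RPM and means of log2 values. Between EHF and EB the 4 lower became 2 with 30 RPM, 2 without the 3 cells and 1 without the 2, and the 6 higher became 3 with means of log2 values. Medians in this section are those of the members alone, without that of all genes under the same setting. Apart from leaving out 1 cell at a time, the medians kept within the spread between cells except that of the EHF Nkx2-5+ CPs with no minimum (-0.27). Several still moved by over 1.5 times. That of the EHF Nkx2-5+/Tbx5+ CPs was 0.000098 with no minimum, -0.0046 with 50 RPM and 0.26 with 30 RPM added, that of the EHF Nkx2-5+ CPs -0.62 with 30 RPM added and -0.63 with means of log2 values, that of the EB Tbx5+ CPs -0.018, -0.66 and -0.21 with no minimum, 50 RPM and means of log2 values, that of the EB Nkx2-5+ CPs -0.016, -0.087 and -0.078 under these, and that between EHF and EB 0 with no minimum, -0.011 with means of log2 values and 0.41 without the 3 cells.

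Leaving out 1 cell, the higher counts ran over 10 to 13, 2 to 5, 2 to 6, 4 to 6 and 5 to 9 in the EHF Nkx2-5+/Tbx5+, EHF Nkx2-5+, EB Tbx5+, EB Nkx2-5+ and EHF against EB comparisons, the lower counts over 2 to 8, 15 to 21, 7 to 14, 7 to 13 and 1 to 8, and the medians over -0.33 to 0.64, -1.38 to -0.87, -0.82 to -0.18, -0.84 to -0.23 and -0.28 to 0.35. Without EB Nkx2-5+ replicate 1 the differences of Tmed2 (-0.81) and Tmed4 (-0.27) in the EB Nkx2-5+ CPs and of Tmed4 between EHF and EB (0.41) changed sign, as did Lman1 in the EB Tbx5+ CPs without the 3 cells (0.0030). Leaving out EB Nkx2-5+ replicate 2 moved the median of the members in the EB Nkx2-5+ CPs by more than the spread between cells (-0.84). Over all cells left out in turn Tmed4 ran to 2.31 in the EB Nkx2-5+ CPs and to -1.32 between EHF and EB. Of the other values of the 70 pairs of a named member and a comparison, 1344 stayed within the spread between cells and 52 moved by more. The cause of these moves was not tested. Depth limits single reads to 0.0264 to 0.0802 RPM, so differences between cells below 1 RPM rest on few reads.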
